A study of Mus musculus with 12 samples.

Results

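The cytosolic ribosomal protein genes code for the proteins of the large and small subunits of the ribosome that works outside mitochondria. They were taken as the protein-coding genes of the GENCODE mouse M21 annotation whose symbol starts with Rpl or Rps and a digit, together with Rplp0, Rplp1, Rplp2 and Rpsa, without the Rps6k kinases and without symbols that hold -ps. This gave 86 of the 54356 genes summed from the deposited files. Of these, 52 were large-subunit and stalk genes, 33 were small-subunit genes, and 1 was Rps19bp1, which the symbol rule takes in although it codes for a binding partner of Rps19 and not for a subunit. Enough reads for a test were found for 83 members, among 14607 genes tested. Rpl10l held 0 reads, Rpl39l held 1 read and Rpl3l held 30 reads in all 12 libraries, and these 3 were not tested.

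Each ribosome holds a fixed set of proteins around its RNAs, so cells make most ribosomal proteins in matched amounts and degrade those left over. Many of their messenger RNAs begin with a run of pyrimidines (the terminal oligopyrimidine, or TOP, motif), through which growth signals control their translation. Some members have a further role: Rpl5 and Rpl11 bind Mdm2 and thereby link ribosome assembly to p53, and Rps6 is phosphorylated by the S6 kinases. The family also has very many processed pseudogenes in the mouse genome, and some are nearly or fully identical in sequence to a coding copy.

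The RNA came from cultures labelled as astrocytes of C57BL/6 mice, from cortex or midbrain. In each region there were 3 groups: mock cultures in growth medium, and cultures with a short hairpin RNA against PTB (shPTB) kept 2 weeks or 4 weeks in medium for neuronal differentiation. PTB, the product of Ptbp1, binds RNA and holds back splice forms typical of neurons. The series follows gene expression between astrocyte and neuronal programs when PTB is lowered. Each of the 6 groups held 2 libraries. Hairpin and medium changed together, so their effects cannot be told apart. No weeks are recorded for the mock cultures, so time in culture cannot be set apart from these in any comparison with mock. No label states whether the libraries of a group came from separate cultures, so p-values speak only to the spread among these libraries.

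Libraries held 6022098 to 11385761 reads. Levels are given in CPM, a gene's reads as a share of its library, after scaling between libraries by TMM, a method that sets most genes to no change, and 3 reads, the limit that a count of 0 allows, were worth 0.163 to 0.576 CPM (counting error only). Ptbp1 lay at 173 to 251 CPM in the mock libraries and at 73.0 to 105 CPM in the 2-week libraries. At 4 weeks it lay at 89.2 and 90.5 CPM in cortex and at 169 and 155 CPM in midbrain, where its log2 fold change of -0.50 was not called (edgeR adjusted p = 0.0744). Mitochondrially encoded genes took 16.8 to 22.7% of reads in mock libraries, against 36.4 to 48.3% with shPTB. The 8 astrocyte markers summed to 11000 to 21800 CPM in mock and 7300 to 14500 CPM in shPTB libraries, most of it Gfap, while S100b was higher in all 4 comparisons with mock and Slc1a2 in both of cortex. The 7 neuron markers summed to 125 to 206 CPM in mock and to at most 83.9 CPM in shPTB libraries. Of these, Tubb3, Dcx and Stmn2 were lower in all 4 comparisons, while Snap25, Rbfox3 and Syt1 were higher in cortex at 2 weeks, from at most 1.22 CPM in mock to at most 3.41 CPM. All 6 microglia markers, all 6 markers of dividing cells and all 4 ependymal markers were lower in each of the 4 comparisons. The microglia markers summed to 1190 to 1830 CPM in mock and 13.8 to 96.0 CPM in shPTB libraries, dividing-cell markers to 185 to 198 CPM and 4.4 to 21.7 CPM, and the ependymal markers to 44.1 to 102 CPM and 3.65 to 13.1 CPM. The 6 fibroblast and pericyte markers summed to 656 to 1840 CPM in mock and 44.7 to 238 CPM in shPTB libraries, with 2 of them higher and 2 or 3 lower in each comparison. The 6 oligodendrocyte markers summed to 127 and 153 CPM in cortex mock and 289 to 328 CPM in cortex shPTB libraries, and in midbrain to 228 and 269 CPM and 192 to 235 CPM. The 4 endothelial markers summed to at most 19.3 CPM in any library. The part of these cells in the results below was not tested, and in RNA of whole cultures fewer cells of a type and less RNA per cell cannot be told apart.

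Sequences that members share with other loci came first, since they decide which reads can be assigned to a member. In 3 families the last coding bases of the member and of its copy were the same letter for letter (GRCm38). They are written 5′ to 3′ on the strand of the gene, with the stop codon in capitals, at chr5:107907937-107907996 (plus strand) for Rpl5 and chr7:114705270-114705329 (minus strand) for Gm15500, at chrX:74273008-74273067 (plus) for Rpl10 and chr9:50344297-50344356 (minus) for Rpl10-ps3, and at chr3:90212725-90212753 (minus) for Rps27 and chr9:114982453-114982481 (minus) for Rps27rt.
Rpl5 and Gm15500: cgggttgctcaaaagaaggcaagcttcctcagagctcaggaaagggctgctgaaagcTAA
Rpl10 and Rpl10-ps3: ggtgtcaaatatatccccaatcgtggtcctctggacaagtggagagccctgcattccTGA
Rps27 and Rps27rt: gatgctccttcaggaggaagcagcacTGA
The longest stretch without a mismatch was 1018 bases between the compared Rpl5 transcript and Gm15500, 740 bases between Rpl10 and Rpl10-ps3, and 341 bases between Rps27 and Rps27rt. It covered all 894, all 645 and all 255 coding bases of Rpl5, Rpl10 and Rps27. Over the family, 166 pseudogenes held at least 50% of the 31-base words in the last 500 bases of some member. Pseudogene reads of this kind came to 1.97 to 3.37 per 100 member reads in mock and to 1.01 to 1.59 in shPTB libraries. These figures leave out copies not annotated as pseudogenes, some of which held many reads over the 12 libraries. Gm10076 held 62273 reads beside 884112 of Rpl41, and Rpl10-ps3 held 40623 beside 4473 of Rpl10. Gm2000 held 27082 beside 873 of Rpl35, and Rps12-ps3 held 15466 beside 42859 of Rps12.

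The start of the transcript was shown for 6 members that the results below turn on. Each line gives the 5 bases before and the 25 bases from the RefSeq start on (GRCm38.p6), on the strand of the gene, with the longest unbroken run of C and T in capitals. The windows lie at chr4:86857343-86857372 (minus) for Rps6, chr17:33955641-33955670 (minus) for Rps18, chr4:136053369-136053398 (minus) for Rpl11, chr1:39367846-39367875 (plus) for Rpl31, chr10:128549144-128549173 (minus) for Rpl41 and chr17:24720058-24720087 (plus) for Rps2.
Rps6: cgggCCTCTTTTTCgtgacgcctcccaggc
Rps18: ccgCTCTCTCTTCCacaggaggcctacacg
Rpl11: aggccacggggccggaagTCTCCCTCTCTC
Rpl31: gCCTCCCCgtgacccggaagttgtacggct
Rpl41: ggCTCggaagtgacgacaccgagcacgcca
Rps2: gatctcgcgCTTCTTggagcactataaatt
Of the 86 members, 66 had a start in the RefSeq table, with 78 windows in all. A start at C followed by at least 4 bases that were each C or T was found in 14 member windows (17.9%), against 823 of 32851 windows of all genes (2.51%). A run of at least 6 C or T bases anywhere in the window, which can include that start, was found in 39 member windows (50%) and in 26.1% of all windows. Both searches read the strand of the gene, and a match is a description of these letters, not a measured start.

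The mock libraries stood apart from each other, which bears on every comparison with mock. Between the libraries of a mock group 23 of 83 members in cortex and 21 in midbrain differed by more than 2-fold. Their median difference was 0.57 and 0.55 (log2, regardless of sign). Over all genes tested 18.4% and 15.8% differed by more than 2-fold, with medians of 0.50 and 0.47. So the split reached beyond the family, though the shares of members over 2-fold, 27.7% and 25.3%, were larger. In the shPTB groups the members' median was 0.07 to 0.11, with 0 to 3 members over 2-fold. Over all genes it was 0.20 to 0.24 there, with 6.44 to 10.5% over 2-fold. The differences went the same way in the regions: 40 members were higher in library 1 in both, 34 were higher in library 2 in both, and 9 went opposite ways. Deviations of same-numbered libraries from their group means correlated between the mock groups at 0.72 over all genes tested and at 0.74 over the members. More than 2-fold higher in library 1 of both regions were 14 members, among them Rps2, Rpsa, Rps6, Rps16, Rpl10, Rpl28 and Rplp2. Rpl31, Rps20 and Rps21 were more than 2-fold higher in library 2 of both regions.

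**Figure D1:**
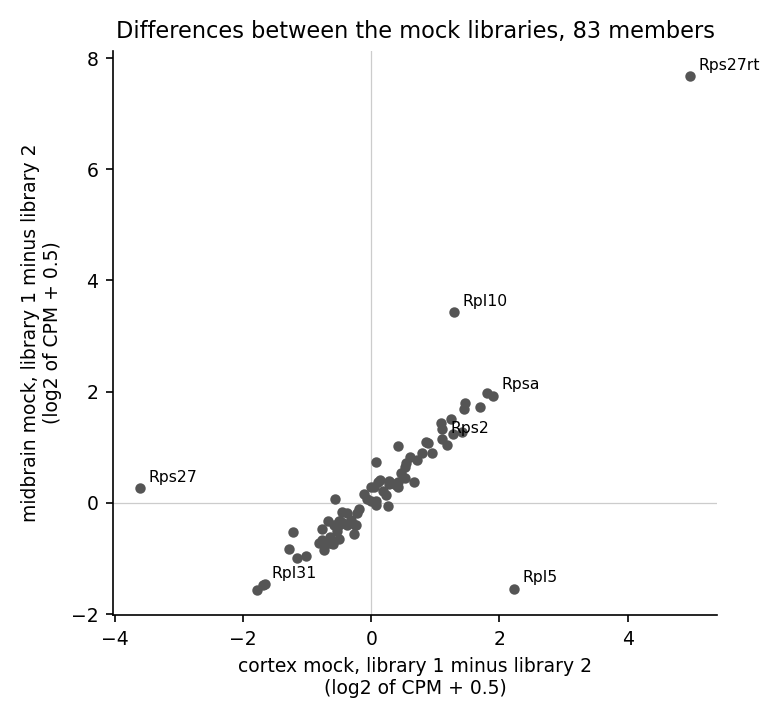
Difference between the mock libraries of cortex (horizontal axis) and of midbrain (vertical axis) for the 83 tested members, as log2 of CPM + 0.5 in library 1 minus library 2. Most points lie along the diagonal: 40 members were higher in library 1 and 34 in library 2 of both regions, and Rps27rt, Rps27 and Rpl5, which share sequence with other genes, lie far out.

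On the TMM scale the summed level of the family was higher in every shPTB library than in every mock library, and as a share of all reads it was not. In cortex the members summed to 16780 and 23100 CPM in mock, 31530 and 32710 CPM at 2 weeks, and 43500 and 43560 CPM at 4 weeks. In midbrain they summed to 21740 and 27110 CPM in mock, 28960 and 28480 CPM at 2 weeks, and 41790 and 40410 CPM at 4 weeks. The group means were 19940 ± 4470, 32120 ± 834 and 43530 ± 42.4 CPM in cortex and 24420 ± 3800, 28720 ± 339 and 41100 ± 976 CPM in midbrain (SD, n = 2). This order of mock, 2 weeks and 4 weeks held on the TMM scale and as a share of reads outside mitochondrially encoded genes in cortex, with 3.49 and 3.64% in mock, 4.49 and 4.55% at 2 weeks, and 5.71 and 5.72% at 4 weeks. In midbrain that share was 4.27 and 4.54% in mock, 4.4 and 4.37% at 2 weeks, and 5.37 and 5.31% at 4 weeks, so mock and 2 weeks overlapped. As a share of all reads the members took 2.83 and 2.81% in cortex mock, 2.80 and 2.79% at 2 weeks, and 2.98 and 2.96% at 4 weeks. In midbrain they took 3.55 and 3.71%, 2.71 and 2.71%, and 3.42 and 3.33%, so on that scale both midbrain shPTB groups lay below mock.

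**Figure D2:**
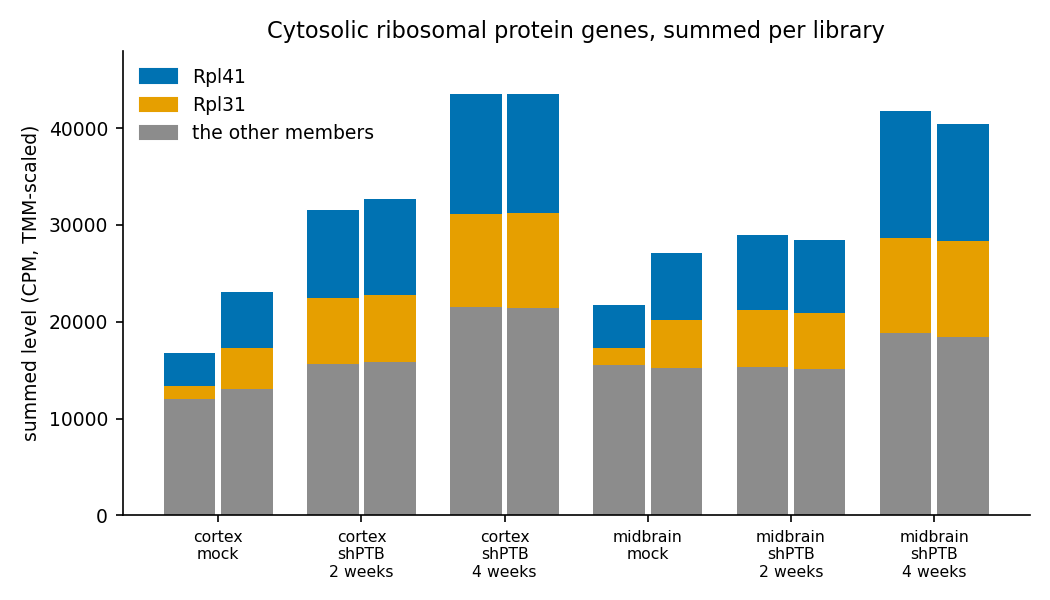
Summed level of the cytosolic ribosomal protein genes in each of the 12 libraries (vertical axis, CPM after TMM scaling), split into Rpl41, Rpl31 and the other members. Cortex 4-week libraries reach 43500 and 43560 CPM against 16780 and 23100 CPM in cortex mock, and much of the difference lies in Rpl41 and Rpl31; as a share of all reads the family took 2.98 and 2.96% against 2.83 and 2.81%.

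A pair of genes carried much of the sum. Rpl41, which codes for a very short large-subunit peptide, held 27.6% of the summed member level over all libraries, and Rpl31, a large-subunit protein near the exit of the peptide tunnel, held 20.3%. Rps15 held 4.94%. Without Rpl41 and Rpl31 the members summed to 12070 and 13060 CPM in cortex mock, 15660 and 15800 CPM at 2 weeks, and 21480 and 21420 CPM at 4 weeks. In midbrain the sum without them was 15580 and 15260 CPM in mock and 15310 and 15140 CPM at 2 weeks, which overlapped, and 18810 and 18410 CPM at 4 weeks. Per kilobase of transcript, Rpl41 at 16650 and Rpl31 at 15710 CPM stood above Rps15 at 3127 CPM, averaged over the libraries. The lengths used were 524, 408 and 500 bases. Reads near 3′ ends need not grow with transcript length, so dividing by it can raise short transcripts against long ones.

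Gene by gene, more members were higher than lower in cortex at 4 weeks under TMM scaling, and more were lower than higher under scaling to total reads. Against cortex mock, 36 of the 83 tested members were higher and 2 lower at 4 weeks (edgeR quasi-likelihood test, adjusted p under 0.05). Over all genes tested in that comparison, 18.5% were higher and 20.9% lower. The members' median log2 fold change was 0.61, beside -0.12 over all genes. At 2 weeks in cortex 15 members were higher and 5 lower, against a background of 17.5% higher and 17.6% lower, with medians of 0.14 and -0.11. So the share of members called higher at 2 weeks was near that of all genes. With libraries scaled only to their total reads, which moved the median of all genes to -1.21 at 4 weeks and -0.85 at 2 weeks, the members turned: 2 were higher and 31 lower at 4 weeks (5.85% and 57.1% of all genes), and 1 was higher and 27 lower at 2 weeks (8.27% and 41.8%). Their medians were then -0.46 and -0.55, above those of all genes. With TMM factors computed without the mitochondrially encoded genes, 38 members were called at 4 weeks, as in the fit with them.

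Midbrain showed fewer calls. At 2 weeks 4 members were higher and 2 lower, against 15.9% and 14.7% of all genes. At 4 weeks 17 were higher and 2 lower, against 18.7% and 20.4% of all genes, with a median of 0.09 beside -0.15, so the share called higher was near that of all genes there too. Scaling to total reads gave 1 higher and 44 lower at 2 weeks (7.99% and 38.8% of all genes) and 2 higher and 40 lower at 4 weeks (7.46% and 49.6%), with the median of all genes at -0.74 and -1.01 and that of the members at -0.61 and -0.79. Libraries of the compared groups did not overlap for 50 members on the higher and 4 on the lower side in cortex at 4 weeks, against 31.7% and 36.4% of all genes, and for 33 and 12 in midbrain at 4 weeks, against 32.5% and 37.8%.

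**Figure D3:**
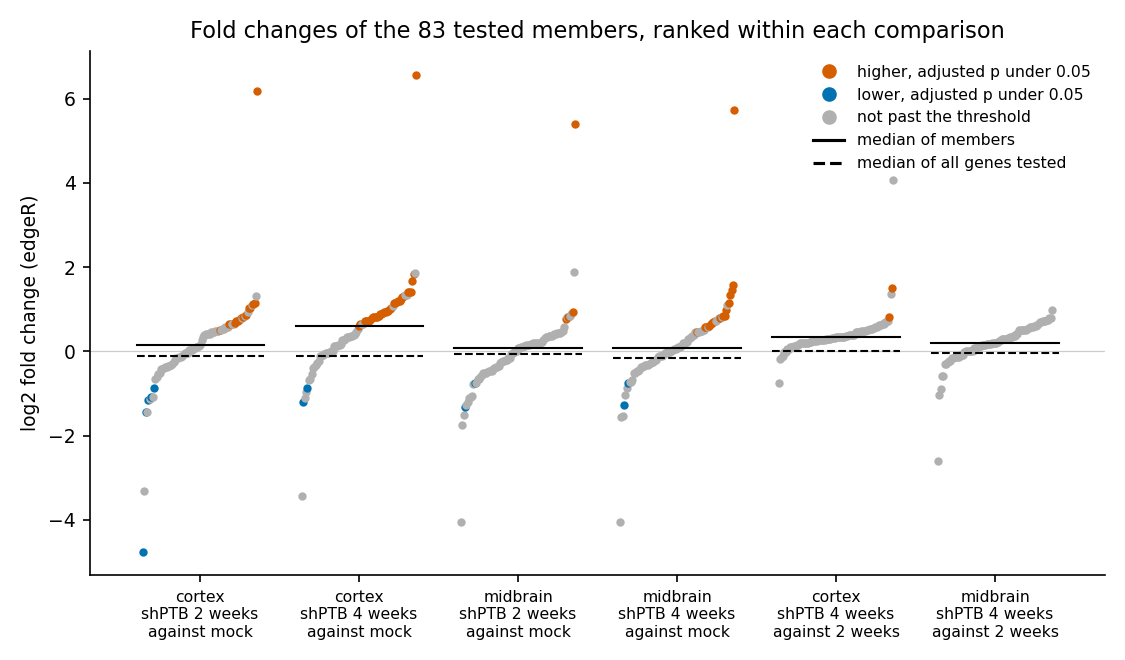
Log2 fold changes (vertical axis, edgeR, TMM scale) of the 83 tested members in 6 comparisons, ranked within each, with orange points higher and blue points lower at an adjusted p under 0.05. In cortex at 4 weeks the member median (solid line) is 0.61 against -0.12 for all genes (dashed line), and both fall to -0.46 and -1.21 with scaling to total reads.

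By subunit, the large subunit and stalk had 24 members higher and 1 lower of 49 in cortex at 4 weeks, and the small subunit 11 higher and 1 lower of 33. In midbrain at 4 weeks 13 of 49 large-subunit members were higher, and of 33 small-subunit members 3 were higher and 2 lower. At 2 weeks the large subunit had 12 higher and 2 lower in cortex and 3 higher and 1 lower in midbrain. The small subunit had 2 higher and 3 lower in cortex at 2 weeks and 1 lower in midbrain. Over all genes 17.5 and 18.5% were higher and 17.6 and 20.9% lower in cortex at 2 and 4 weeks. In midbrain 15.9 and 18.7% were higher and 14.7 and 20.4% lower. Outside cortex at 4 weeks, small-subunit members were thus called higher less often than all genes. These counts are on the TMM scale, and the difference between the subunits was not tested.

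Between 2 and 4 weeks few single members passed the test when all 6 groups shared 1 estimate of the spread. In cortex 2 members, Rpl13 and Rps18, were higher at 4 than at 2 weeks and 0 were lower, against 0.548% and 2.22% of all genes, and 14 were higher and 0 lower at an unadjusted p under 0.05. The DESeq2 test called 6, all higher, against 0.807% of all genes. The estimate was positive for 77 of 83 members, with a median of 0.33 beside 0.00 over all genes, and the libraries did not overlap for 66 members on the higher and 2 on the lower side, against 27.4% and 27.4% of all genes. In midbrain edgeR called 0 members in either direction, against 0.958% and 1.7% of all genes, with 13 higher and 4 lower at an unadjusted p under 0.05 and 3 called by DESeq2. The share of all genes at an unadjusted p under 0.05 is not given here, nor that called by DESeq2 in midbrain. Those counts therefore cannot be read as particular to the members. When only these groups entered the fit, without the mock libraries, 44 members were higher and 0 lower in cortex, against 11.4% and 12.7% of all genes. In midbrain that fit gave 36 higher and 10 lower, against 16.8% and 15.4%. With scaling to total reads the median of the members was -0.02 in cortex and 0.01 in midbrain, beside -0.35 and -0.24 over all genes.

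Leaving out either kind of mock library changed how many members were called, on the TMM scale. Shares of all genes called in the same fit, higher and lower, stand in brackets. Without cortex mock library 1, 26 members were higher and 0 lower at 4 weeks (14.2% and 16.5%), and 8 were higher and 1 lower at 2 weeks (12.9% and 13.6%). Without cortex mock library 2 it was 45 and 6 at 4 weeks (20.3% and 21.3%) and 32 and 13 at 2 weeks (19.6% and 18.7%). Without midbrain mock library 1, 12 were higher and 0 lower at 4 weeks (13.9% and 14.6%), and 4 and 0 at 2 weeks (11.3% and 10.4%). Without midbrain mock library 2 it was 25 and 15 at 4 weeks (19.4% and 20.6%) and 11 and 21 at 2 weeks (17.4% and 16.8%). Leaving out 1 shPTB library lowered the calls to 18 or 19 in cortex at 4 weeks, all higher (at most 11.7% and 12.3%), and to 4 or 5 in cortex at 2 weeks (at most 10.8% and 9.21%). In midbrain it lowered them to 4 or 5 at 4 weeks (at most 11.4% and 10.3%) and 1 or 2 at 2 weeks (at most 9.28% and 6.75%). Without library 1 of both regions, an alternative chosen after seeing this split, 59 members were higher and 1 lower in cortex at 4 weeks (23.6% and 24.5%) and 43 higher and 6 lower in midbrain at 4 weeks (24.9% and 24.6%). Without library 2 of both regions it was 50 higher and 21 lower in cortex (26.6% and 29.4%) and 38 higher and 30 lower in midbrain (27.7% and 30.2%). Calls that held in each of the 4 fits with 1 library left out numbered 17 in cortex at 4 weeks, all higher. Among them were Rpl5, Rpl6, Rpl7l1, Rpl11, Rpl13a, Rpl15, Rpl23, Rpl26, Rpl27a, Rpl29, Rpl35a, Rpl37, Rpl41, Rps15, Rps18 and Rps19bp1. In midbrain at 4 weeks 4 held: Rpl5, Rpl7l1, Rpl11 and Rps19bp1. At 2 weeks Rpl5 and Rps18 held in cortex and Rpl5 in midbrain, and each other call named here was lost in at least 1 of these fits. Calls of all genes that held in these fits were not counted, so the calls kept do not show a trait of the family. Rpl5 shares sequence with Gm15500, and the sum of both genes was called only in cortex at 4 weeks, as given below.

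Over the 4 comparisons with mock, which share their mock libraries within a region, Rpl5, Rpl11 and Rps19bp1 were higher in all 4 and Rps2 was lower in all 4. A further 10 members were higher in 3: Rpl6, Rpl15, Rpl23, Rpl26, Rpl27a, Rpl29, Rpl35a, Rpl37, Rpl41 and Rps18. No call was made in any of the 4 for 41 of the 83. The same counts were not made over all genes, so they do not show a trait of the family.

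Rps18, a protein of the head of the small subunit, had the largest rise among the small-subunit members called in cortex at 4 weeks. Its level was 152 and 198 CPM in cortex mock, 331 and 310 CPM at 2 weeks, and 540 and 584 CPM at 4 weeks. In midbrain it was 197 and 224 CPM in mock, 239 and 247 CPM at 2 weeks, and 382 and 352 CPM at 4 weeks. The groups of each region were ordered mock, 2 weeks, 4 weeks without overlap. The log2 fold change against mock was 0.87 ± 0.19 and 1.68 ± 0.19 in cortex at 2 and 4 weeks (SE, edgeR adjusted p = 0.00417 and 5.56e-05) and 0.80 ± 0.19 in midbrain at 4 weeks (0.00616). From 2 to 4 weeks in cortex it rose by 0.81 ± 0.19 (adjusted p = 0.0458), and without any 1 of these 4 libraries that adjusted p was 0.231 to 0.338. In cortex at 4 weeks it also stayed higher with scaling to total reads, at 0.62 (edgeR adjusted p = 0.00188), which besides Rpl5 no other member did.

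Among large-subunit proteins, Rpl15, Rpl6 and Rpl23 followed a like course. Rpl15 lay at 273 and 220 CPM in cortex mock, 374 and 395 CPM at 2 weeks, and 591 and 627 CPM at 4 weeks. Its midbrain libraries held 328 and 255 CPM in mock, 288 and 295 CPM at 2 weeks, and 441 and 447 CPM at 4 weeks, so midbrain mock and 2 weeks overlapped. The log2 fold changes called were 0.64 and 1.31 in cortex at 2 and 4 weeks and 0.61 in midbrain at 4 weeks (edgeR adjusted p = 0.0224, 0.000349 and 0.0263). For Rpl6 they were 0.67, 1.14 and 0.69 in the same comparisons, from 520 and 541 CPM in cortex mock to 1117 and 1213 CPM in cortex at 4 weeks. For Rpl23 they were 0.74, 1.19 and 0.72, from 87.0 and 131 CPM to 256 and 241 CPM. Rpl37, a small zinc-binding protein of the large subunit, was higher in midbrain at 2 weeks as well (0.76, adjusted p = 0.0186), from 64.2 and 84.4 CPM in mock to 124 and 128 CPM.

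**Figure D4:**
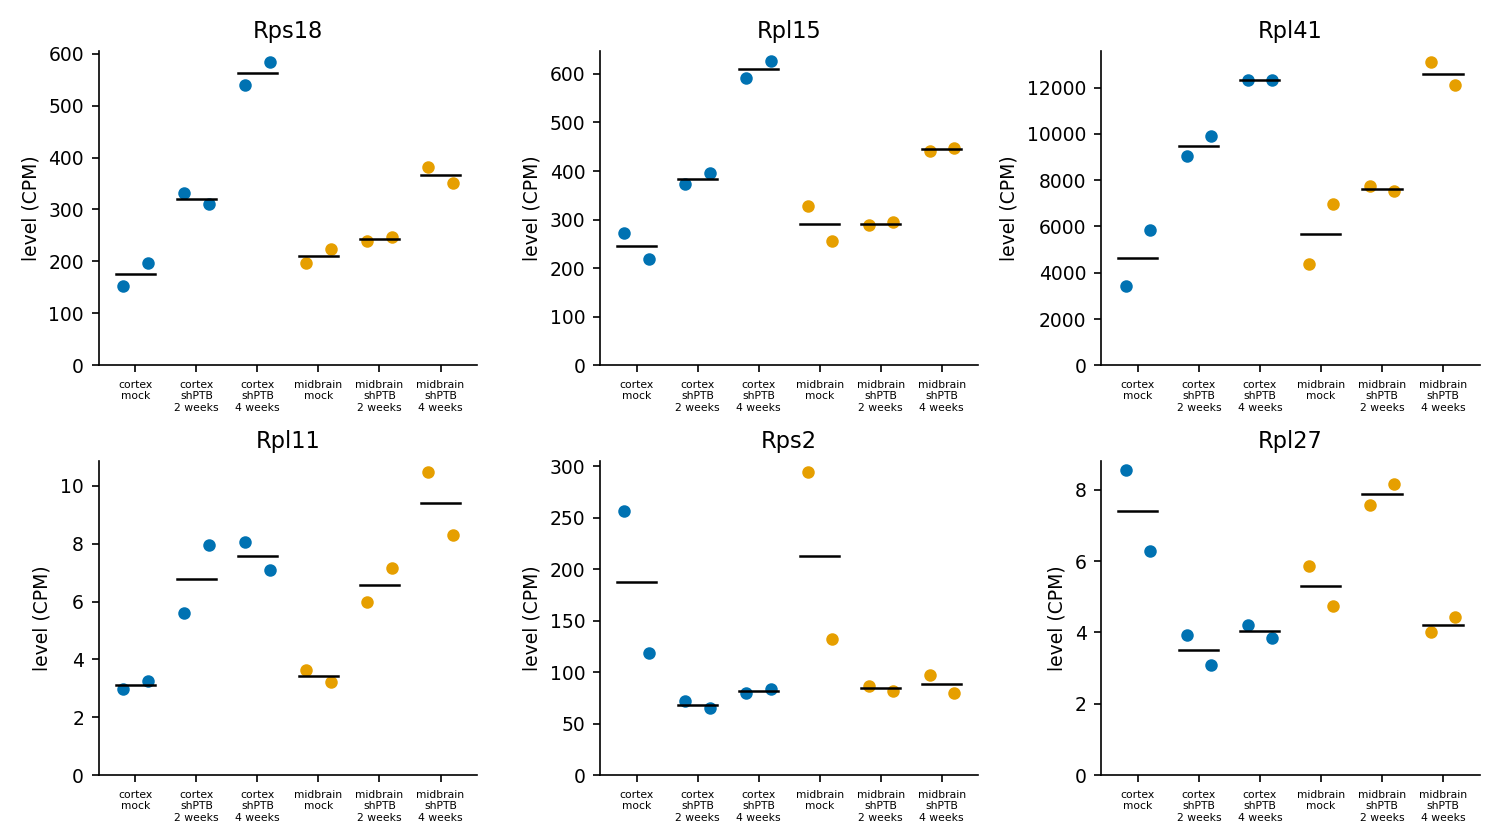
Level in each library (points, CPM after TMM scaling, linear axes from 0) and group mean (lines) of 6 members, cortex in blue and midbrain in orange. Rps18, Rpl15 and Rpl41 are highest at 4 weeks, Rpl11 is higher in all shPTB libraries, Rps2 is high in library 1 of both mock groups, and Rpl27 is lower in cortex shPTB than in cortex mock libraries.

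Rpl41 and Rpl31, the members with the most reads, were split by mock library. Rpl41 lay at 3412 and 5835 CPM in cortex mock, 9062 and 9915 CPM at 2 weeks, and 12320 and 12310 CPM at 4 weeks. Midbrain held 4398 and 6958 CPM in mock, 7739 and 7524 CPM at 2 weeks, and 13110 and 12100 CPM at 4 weeks. No mock library reached a shPTB library of its region. Rpl41 was higher by 1.04 ± 0.30 and 1.41 ± 0.31 in cortex (edgeR adjusted p = 0.0212 and 0.00387) and by 1.15 ± 0.30 in midbrain after 4 weeks (adjusted p = 0.0122), while midbrain at 2 weeks gave 0.43 (adjusted p = 0.304). Rpl31 lay at 1301 and 4205 CPM in cortex mock and 1761 and 4886 CPM in midbrain mock, against 9708 and 9827 CPM and 9873 and 9898 CPM at 4 weeks. It was higher by 1.83 ± 0.52 in cortex (adjusted p = 0.017) and 1.57 ± 0.52 in midbrain (adjusted p = 0.0333). Without mock library 1 of the region these became 1.21 (adjusted p = 0.052) and 1.01 (adjusted p = 0.161).

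Rpl11, one of the p53-linked pair, was low, with 30 to 76 reads in a library. Its mock libraries lay close together within a region, while those of cortex at 2 weeks lay further apart. Rpl11 lay at 2.96 and 3.26 CPM in cortex mock, 5.62 and 7.95 CPM at 2 weeks, and 8.06 and 7.11 CPM at 4 weeks. In midbrain it lay at 3.64 and 3.21 CPM in mock, 6.00 and 7.17 CPM at 2 weeks, and 10.5 and 8.30 CPM at 4 weeks. All shPTB libraries were above all mock libraries. The log2 fold changes were 1.13 ± 0.27 and 1.29 ± 0.27 in cortex and 0.94 ± 0.25 and 1.45 ± 0.25 in midbrain (edgeR adjusted p = 0.0074, 0.00302, 0.017 and 0.00119). With scaling to total reads they were 0.39, 0.20, 0.27 and 0.58, none past the threshold. Only 2.32% of Rpl11 reads were placed on its coding transcripts, the rest on transcripts annotated as non-coding.

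Rps19bp1, the binding partner of Rps19, was higher in all 4 comparisons too. Its level was 29.4 and 42.6 CPM in cortex mock and 28.7 and 41.2 CPM in midbrain mock. It was 78.6 and 68.3 CPM in cortex and 65.7 and 57.8 CPM in midbrain at 2 weeks, and 87.9 and 82.3 CPM and 87.7 and 88.3 CPM at 4 weeks. Mock and shPTB libraries did not overlap. The log2 fold changes were 1.03 and 1.24 in cortex and 0.82 and 1.33 in midbrain (edgeR adjusted p = 0.00508, 0.00142, 0.0177 and 0.001), and with scaling to total reads the last, at 0.48, remained past the threshold (adjusted p = 0.0241). Rps19 itself, the protein mutated most often in Diamond-Blackfan anaemia, lay between 47.7 and 83.2 CPM in all 12 libraries and was not called.

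Rpl5, the other p53-linked protein, had the largest fold change of the family, and its reads moved against those of the identical Gm15500. Rpl5 was at 2.96 and 0.239 CPM in cortex mock and 1.47 and 5.2 CPM in midbrain mock. In the shPTB libraries it was at 134 and 115 CPM and 165 and 161 CPM in cortex, and at 149 and 128 CPM and 175 and 171 CPM in midbrain. Gm15500 held 96.0 and 114 CPM in cortex mock and 122 and 132 CPM in midbrain mock, and 0 to 21.1 CPM in the shPTB libraries. Rpl5 alone gave log2 fold changes of 6.18, 6.57, 5.39 and 5.72 (edgeR adjusted p = 9.3e-05, 5e-05, 0.000177 and 0.000101). The sum of both genes was 98.9 and 114 CPM in cortex mock, 136 and 115 CPM at 2 weeks, and 165 and 161 CPM at 4 weeks. In midbrain the sum was 124 and 137 CPM in mock, 154 and 149 CPM at 2 weeks, and 177 and 172 CPM at 4 weeks. For the sum the log2 fold changes were 0.24, 0.62, 0.22 and 0.42, and only that in cortex at 4 weeks passed the threshold (edgeR adjusted p = 0.294, 0.0134, 0.353 and 0.0666).

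**Figure D5:**
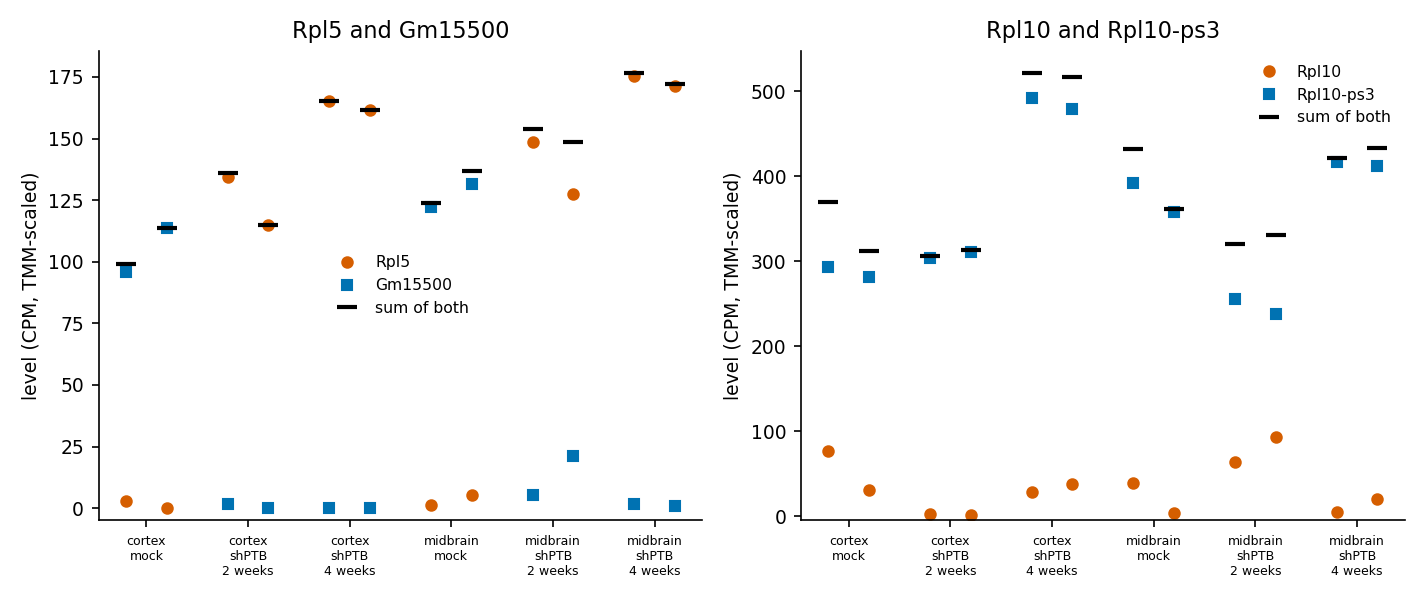
Levels (vertical axes, CPM after TMM scaling) in each library of Rpl5 and Gm15500 and of Rpl10 and Rpl10-ps3, with the sum of each pair as a dash. Reads lie on Gm15500 in mock and on Rpl5 in shPTB libraries, while the sum of the pair runs from 98.9 to 177 CPM.

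For Rpl10, a late-joining large-subunit protein on the X chromosome, most reads lay on Rpl10-ps3, which the annotation types as protein-coding and the symbol rule left out. Rpl10 was at 76.8 and 31.1 CPM in cortex mock and 2.06 and 1.95 CPM at 2 weeks, a log2 fold change of -4.75 ± 1.12 (edgeR adjusted p = 0.00745). Rpl10-ps3 held 293 and 281 CPM in cortex mock and 304 and 311 CPM at 2 weeks. The sum of both was 370 and 312 CPM in cortex mock, 307 and 313 CPM at 2 weeks, and 522 and 517 CPM at 4 weeks. Its log2 fold change was -0.14 at 2 and 0.61 ± 0.18 at 4 weeks (edgeR adjusted p = 0.571 and 0.0186). So the call on Rpl10 alone at 2 weeks was lost, and the sum was called higher at 4 weeks, where Rpl10 alone had -0.69. In midbrain Rpl10 alone had 1.88 and -0.72 at 2 and 4 weeks and the sum -0.28 and 0.11, none called.

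Rps27, a zinc-finger protein of the small subunit, divided its reads with Rps27rt and the non-coding Gm17241. Rps27rt held 70.2 and 1.75 CPM in cortex mock and 102 and 0 CPM in midbrain mock, and 0 to 6.98 CPM elsewhere. Rps27 held 0 to 13.4 CPM in all libraries. The sum of the 3 genes was 72.6 and 22.0 CPM in cortex mock and 111 and 26.4 CPM in midbrain mock, so the high values lay in library 1 of both regions, and 20.1 to 30.04 CPM in the shPTB libraries. Neither Rps27, Rps27rt nor the sum was called in any comparison with mock.

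Rpl13, with the pseudogene Gm12918, showed the same limit. Rpl13 was at 36.0 and 53.6 CPM in cortex mock, 32.2 and 37.3 CPM at 2 weeks, and 130 and 66.9 CPM at 4 weeks, and was called against mock (1.14, edgeR adjusted p = 0.0109) and against 2 weeks (1.5 ± 0.31, adjusted p = 0.0262). With the reads of Gm12918 and smaller copies added, the log2 fold changes were 0.47 and 0.54 and neither was called (adjusted p = 0.107 and 0.266). For Rpl36a the reverse held: alone it had 0.27 in cortex at 4 weeks (adjusted p = 0.604), and with its copies, mainly the pseudogene Rpl36a-ps2 and Rpl36a-ps1, which is annotated as coding, 1.0 ± 0.20 (adjusted p = 0.00225), from 12.6 and 16.6 CPM in mock to 28.4 and 29.98 CPM. The sum for Rpl17 with its copies rose by 0.85 ± 0.17 in cortex at 4 weeks (adjusted p = 0.00224), near the 0.89 of Rpl17 alone. Adding the reads of such pseudogenes to every member left the count in cortex at 4 weeks at 38.

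Rps2, a small-subunit protein at the entry of the messenger RNA, was the member lower in all 4 comparisons. It lay at 257 and 119 CPM in cortex mock and 294 and 132 CPM in midbrain mock. In the shPTB libraries it lay at 71.7 and 65.4 CPM and 79.3 and 84.0 CPM in cortex, and at 86.9 and 82.1 CPM and 97.0 and 80.1 CPM in midbrain. Both mock libraries of a region were above its shPTB libraries, and library 1 was over 2-fold above library 2. The log2 fold changes were -1.45, -1.20, -1.33 and -1.27 (edgeR adjusted p = 0.0134, 0.028, 0.022 and 0.0227). Without mock library 1 of the region they were -0.80, -0.55, -0.65 and -0.58, none called (adjusted p = 0.0999, 0.25, 0.2 and 0.223). Only 0.571% of Rps2 reads were placed on coding transcripts.

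Other members with the high value in mock library 1 were not called or called once. Rps16 was at 199 and 81.7 CPM in cortex mock and 65.0 and 61.0 CPM at 2 weeks (-1.16 ± 0.41, edgeR adjusted p = 0.0492), and without cortex mock library 1 the log2 fold change was -0.39 (adjusted p = 0.463). Rpsa, the laminin receptor protein, was at 87.7 and 23.1 CPM in cortex mock and 113 and 29.5 CPM in midbrain mock, against 19.6 to 28.6 CPM in the shPTB libraries, and was not called. Rps6, the target of the S6 kinases, was at 61.9 and 27.1 CPM in cortex mock and 71.8 and 34.5 CPM in midbrain mock, against 28.4 to 41.3 CPM in the shPTB libraries, and was not called either. The shPTB values of Rps6 lay above mock library 2 of their region.

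Rpl27 and Rps3a1 were also called lower against mock. Rpl27, a large-subunit protein, lay at 8.54 and 6.29 CPM in cortex mock, 3.93 and 3.08 CPM at 2 weeks, and 4.21 and 3.84 CPM at 4 weeks, with log2 fold changes of -1.09 and -0.88 (edgeR adjusted p = 0.00999 and 0.023). In midbrain it went from 5.86 and 4.75 CPM to 7.58 and 8.17 CPM at 2 weeks and 4.01 and 4.42 CPM at 4 weeks, neither called. Without cortex mock library 1 the value in cortex at 4 weeks was -0.65 (adjusted p = 0.135). The pseudogene Gm11518 held 81% of the 31-base words of Rpl27, and the sum of both was 12.6 and 6.93 CPM in midbrain mock, 8.83 and 8.17 CPM at 2 weeks, and 5.25 and 4.42 CPM at 4 weeks. For the sum the log2 fold changes were -1.38 and -1.09 in cortex and -0.20 and -1.01 in midbrain (edgeR adjusted p = 0.0115, 0.0282, 0.654 and 0.0333). So the sum was called lower in midbrain at 4 weeks, where Rpl27 alone had -0.33, and at 2 weeks its estimate turned from 0.57. Rps3a1, a small-subunit protein, was lower in cortex at 2 weeks and in midbrain at 4 weeks (-0.88 and -0.75, edgeR adjusted p = 0.0196 and 0.0328), from 28.2 and 19.4 CPM to 13.5 and 12.5 CPM and from 32.7 and 20.7 CPM to 16.4 and 15.4 CPM. Without midbrain mock library 1 the latter was -0.39 (adjusted p = 0.253).

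The stalk, which recruits the factors that drive elongation, gave no edgeR call against mock. Rplp0 lay at 503 and 378 CPM in cortex mock and 654 and 501 CPM in midbrain mock, and at 367 to 434 CPM in the shPTB libraries. Rplp1 lay at 240 and 151 CPM and 217 and 168 CPM in mock, and at 134 to 167 CPM in the shPTB libraries. Rplp2 held 64.7 and 27.1 CPM in cortex mock against 93.0 and 99.9 CPM at 4 weeks, a log2 fold change of 1.07 ± 0.44 that missed the threshold (edgeR adjusted p = 0.078). Of 12 tests of these 3 genes against mock, edgeR called 0, 4 had an unadjusted p under 0.05, and DESeq2 called 1, Rplp2 in cortex at 4 weeks. Shares of all genes at that unadjusted p or called by DESeq2 are not given here. The summed stalk level was 556 to 954 CPM in mock and 594 to 658 CPM in shPTB libraries.

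Within some paralogue pairs only 1 partner was called, which does not show that the partners differed. Rpl7, at 116 and 99.0 CPM in cortex mock and 149 and 146 CPM at 4 weeks, was not called, while Rpl7l1, a nucleolar relative of Rpl7, was higher in both regions at 4 weeks, by 0.81 in cortex and 0.98 in midbrain (edgeR adjusted p = 0.00495 and 0.00178). Rpl7l1 went from 22.0 and 19.3 CPM to 34.3 and 38.4 CPM in cortex and from 19.4 and 16.6 CPM to 36.2 and 34.7 CPM in midbrain, with no overlap. Rpl22 went from 136 and 226 CPM to 353 and 336 CPM in cortex at 4 weeks (0.93, adjusted p = 0.0247, and 0.60 without cortex mock library 1, adjusted p = 0.131), and its paralogue Rpl22l1 stayed between 2.60 and 4.69 CPM in all libraries and was not called. Rps27l, a relative of Rps27 induced by p53 in other settings, was higher in both regions at 4 weeks (0.73 and 0.83, edgeR adjusted p = 0.0208 and 0.0108), at 39.9 to 46.1 CPM against 21.3 to 30.1 CPM in mock. Without mock library 1 of the region these were 0.49 and 0.66 (adjusted p = 0.129 and 0.0678). With scaling to total reads, Rpl7l1 had -0.29 and 0.10 at 4 weeks in cortex and midbrain, Rps27l -0.33 and -0.02, and Rpl22 -0.10 in cortex, none called. Rpl7 then had -0.66 in both regions and was called lower (edgeR adjusted p = 0.0221 and 0.0247). Differences between the responses of paralogues were not tested.

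The remaining pairs had a low or silent partner. Rpl36al lay at 1.46 to 3.27 CPM, beside Rpl36a at 6.80 to 19.0 CPM, and neither was called. Rpl3 went from 192 and 232 CPM in cortex mock to 381 and 359 CPM at 4 weeks (0.81, edgeR adjusted p = 0.0106), and its muscle paralogue Rpl3l held at most 0.414 CPM in any library. Rpl39 went from 39.5 and 63.1 CPM to 93.2 and 87.1 CPM in the same comparison (0.81, adjusted p = 0.0288, and 0.50 without cortex mock library 1, adjusted p = 0.168), and its testis-enriched paralogue Rpl39l was at 0 reads in 11 libraries. Rpl10l, a testis form of Rpl10, was at 0 reads in all 12. Rps4x, the X-linked Rps4, lay at 126 to 178 CPM in all libraries and was not called.

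Between the regions, edgeR called no member with all libraries, the count filter and no replicate block in the fit. With a replicate block in mock only, or without the filter, it did call members, as given under the processing below. In mock, edgeR called 0 members higher and 0 lower in midbrain than in cortex, against 1.25% and 0.938% of all genes, with 2 higher at an unadjusted p under 0.05 and 0 called by DESeq2. The estimate was above 0 for 77 of 83 members, with a median of 0.27 beside 0.00. The response at 2 weeks differed between midbrain and cortex for 0 members in either direction, against 0.424% and 0.26%, with 2 higher and 6 lower at an unadjusted p under 0.05 and 1 called by DESeq2. At 4 weeks it was again 0 and 0, against 1.9% and 0.644%, with 0 higher and 6 lower at an unadjusted p under 0.05 and 0 called by DESeq2. Shares of all genes at an unadjusted p under 0.05 or called by DESeq2 are not given for these comparisons of the regions. Those counts therefore cannot be read as particular to the members. The median difference, midbrain response minus cortex response, was -0.28 at 2 and -0.37 at 4 weeks, beside 0.03 and 0.00 over all genes. Without mock library 1 of both regions, chosen after seeing the data, 21 members had a lower and 5 a higher response in midbrain at 2 weeks (3.68% and 5.07% of all genes in that fit). At 4 weeks it was 27 and 1 (4.31% and 7.78%), and 15 members were higher and 1 lower in midbrain mock (3.46% and 4.21%). Without mock library 2 of both regions these counts were 31 and 5 (5.74% and 4.42%), 39 and 1 (6.32% and 7.22%), and 40 and 1 (5.76% and 3.65%).

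Reads of the members were not all on coding transcripts. Over the libraries 67.0 to 71.0% of member reads were placed on protein-coding transcripts and 16.9 to 20.5% on transcripts with a retained intron. Transcripts annotated for nonsense-mediated decay took 11.8 and 12.1% in library 1 of cortex and midbrain mock, 7.51 and 7.60% in library 2, and 5.87 to 7.19% in the shPTB libraries. For 31 members less than 50% of reads lay on coding transcripts, among them Rpl12 with 0%. Of the members described above, these included Rpl5 (1.34%), Rps18 (5.92%), Rpl22 (15.7%), Rpl6 (24%), Rpl37 (30.9%) and Rpl23 (38.3%). Reads come from the 3′ ends, where transcripts of a gene often share sequence, so these shares follow how Salmon divided the reads.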

How the data were processed

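RNA of 12 libraries was sequenced after oligo(dT)-type priming of total RNA, bead capture and a random-primed second strand, per the labels' protocols, so reads lie near 3′ ends. No molecular identifiers are described, PCR copies count as reads, and strandedness and the annotation release are not given in the sources used here. Cutadapt 2.3, Salmon 0.14.1, DESeq2 and mm10 were used, per the submitters' processing notes. The deposited values are the authors' estimated counts per transcript, not normalized, in which Salmon divides reads shared by several transcripts.

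Transcripts were assigned to genes of GENCODE M21 (GRCm38). Of 140658 transcripts 521, with 0.0547 to 0.129% of reads, did not match and were left out. Counts were summed per gene and rounded, since 56.3% of values above 0 were not whole. Genes were filtered by filterByExpr (minimum 10 reads, total 15) and scaled by TMM (factors 1.22 to 1.69 in mock, 0.68 to 0.953 in shPTB). The quasi-likelihood test of edgeR 4.0.16 (limma 3.58.1, R 4.3.3) took in the 6 groups together, with 6 residual degrees of freedom, and gave 9 contrasts with Benjamini-Hochberg adjustment over all genes. The procedure was tested on simulated data. Shared 3′ ends were counted as 31-base words in the last 500 bases of transcripts. Levels between genes were set side by side per kilobase of read-weighted transcript length.

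Members were named with values by role: paralogues and tissue forms, stalk genes, Rpl5, Rpl11, Rps6, Rps19, Rpsa, Rps19bp1, and the 3 largest rises and falls past the threshold in each contrast. For other lists the 2 largest changes past the threshold against mock were named. Rpl13a, Rpl15, Rpl6, Rpl23, Rpl41, Rpl17, Rps16 and members named only in a count fall partly outside that rule and were chosen after their values were seen. Counts cover all members, and values of some genes are not reported here. The members and all lists were chosen with earlier results of these data known. Alternatives were RLE size factors, scaling to total reads, TMM without mitochondrial genes, pseudogene reads added or left out, a replicate block, DESeq2 1.42.0, a stricter count filter (5 CPM in 2 libraries) or none, a fit of the compared groups alone, and fits without 1 library, in which the library left in its group is taken to vary as the other groups do.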

Additional observations from a re-analysis of the deposited data

How the results depend on the processing

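Counts are of members called in either direction by edgeR unless another tool is named. Shares of all genes called in the same fit do not stand beside them here, so they describe the fits and not a trait of the family. With 1 library left out they ran, against mock, from 4 to 45 and 18 to 51 in cortex at 2 and 4 weeks and from 1 to 32 and 4 to 40 in midbrain. They ran from 0 to 1 for 4 against 2 weeks in cortex, 0 to 1 between the mock groups, and 0 to 2 for each difference of the regions' responses. With only the groups compared, 6, 17, 2 and 7 were called against mock in cortex at 2 and 4 weeks and midbrain at 2 and 4 weeks, and 44 and 46 for 4 against 2 weeks in cortex and midbrain. In midbrain at 2 weeks 45 were called with scaling to total reads, 11 by DESeq2 and 21 without a count filter, and in midbrain at 4 weeks 42 with scaling to total reads. For 4 against 2 weeks in cortex the count was 1 with RLE size factors, with scaling to total reads, with pseudogene reads added or with those of all sharing genes added, 6 by DESeq2 and 4 without a filter, and in midbrain 3 by DESeq2 and 3 without a filter. Without a filter 2 were called between the mock groups, 1 for the difference at 2 weeks (also 1 by DESeq2) and 2 for that at 4 weeks. The cause of these changes was not tested.

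The replicate block gave 27, 43, 10 and 23 calls against mock (cortex at 2 and 4 weeks, midbrain at 2 and 4 weeks), and kept all calls made without it. Labels give the numbers with no shared animal or day. Same-numbered deviations correlated at 0.72 between the mock groups and at -0.03 to 0.03 between other pairs of groups. Over members alone they correlated at 0.74 between the mock groups and at -0.70 to 0.74 between other pairs. Added after seeing the data, a replicate block in mock only gave 56, 62, 55 and 56 calls against mock. For 4 against 2 weeks it gave 45 and 43 in cortex and midbrain. It gave 40 between the mock groups, and 31 and 35 for the differences of responses at 2 and 4 weeks. The share of all genes called in that fit is not reported here, so these counts cannot be read as particular to the members. Leaving out the mock libraries numbered 1 gave 52, 60, 33 and 49 calls against mock, 16 between the mock groups and 26 and 28 for the differences. Leaving out those numbered 2 gave 67, 71, 61 and 68, then 41, and 36 and 40.

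Of 3882 values of named members under an alternative, 3226 kept direction and side of the threshold, 290 newly passed it, 102 no longer passed it, 238 changed sign without passing it in either fit, and 26 changed sign with a call in at least 1. With scaling to total reads the log2 fold changes of these 26 were Rps4x -0.66, -0.68 and -0.58 (cortex 2 and 4 weeks, midbrain 2 weeks), Rpl7 -0.65, -0.66 and -0.66 (cortex 2 and 4 weeks, midbrain 4 weeks), Rps27l -0.33, -0.52 and -0.02 (cortex 4, midbrain 2 and 4 weeks), Rpl39 -0.22 and -0.54 (4 weeks, cortex and midbrain), and in cortex at 4 weeks Rpl22 -0.10, Rps19 -0.87, Rpl3 -0.26 and Rpl7l1 -0.29. With all sharing genes added Rpl10 was 0.61 in cortex at 4 weeks. Without the mock libraries numbered 1, Rps6 was 0.59 (cortex 4 weeks), Rplp2 0.55 (midbrain 2 weeks), Rpl10 2.01 (midbrain 4 weeks) and 1.92 (difference at 4 weeks), and Rps27rt 7.68 and 7.68 in midbrain, where the mock library left had 0 reads, so this is no bound. Without those numbered 2, Rpl3 was 0.30 (midbrain 2 weeks), Rplp2 -0.25 (midbrain 4 weeks) and Rpl5 1.16 and 1.10 (differences at 2 and 4 weeks). Depth limits Rpl3l, Rpl39l, Rpl10l and members near 3 CPM.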

Other observations

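Genes tied to ribosome production outside the family moved in both directions. Of 76 tested mitochondrial ribosomal protein genes, which code for the ribosome inside mitochondria, 13, 21, 8 and 18 were higher and 3, 2, 2 and 4 lower than mock (cortex at 2 and 4 weeks, midbrain at 2 and 4 weeks, edgeR adjusted p under 0.05). Over all genes 17.5, 18.5, 15.9 and 18.7% were higher and 17.6, 20.9, 14.7 and 20.4% lower in these comparisons, which is the background for each list here. Mrpl35 was higher by 1.40, 1.94, 1.28 and 1.82 (log2) and Mrps6 had -1.88, -2.05, -1.45 and -1.51, each called in all 4. Of 40 ribosome biogenesis genes, 3, 9, 1 and 10 were higher and 4, 1, 4 and 2 lower. Rrn3, an initiation factor of RNA polymerase I, was higher by 1.57, 1.80, 1.27 and 1.97. Utp20, of the small-subunit processome, was lower in cortex by -2.03 and -1.75. Of 20 elongation factors and other TOP genes 1, 3, 1 and 2 were higher and 2, 2, 1 and 4 lower. Eef2, which moves the ribosome along the message, was higher by 0.73, 0.98, 0.57 and 0.57, and Npm1, a nucleolar chaperone, had -1.01, -0.60, -0.77 and -0.76, all called.

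Of 6 tested snoRNA host genes without a protein, 2 and 3 were higher in cortex at 2 and 4 weeks and 3 in midbrain at 4 weeks, with Snhg3 at 1.68 and 1.15 and Snhg5 at 1.21 and 0.99 at 4 weeks. Of 17 genes that control translation and ribosome production, 3, 4, 2 and 4 were higher and 3, 3, 2 and 2 lower. Pdcd4, an inhibitor of translation initiation, was higher by 2.21, 2.62, 1.61 and 1.2 in these comparisons, and Tsc2, an inhibitor of mTORC1 signalling, by 0.95, 1.53, 0.92 and 1.53. Mycn, a driver of ribosome production, had -3.39, -4.83, -3.26 and -5.32, and Eif4ebp1, a translation repressor under mTORC1, -1.84, -2.38, -1.77 and -1.83, all called. In the cortex shPTB libraries and in midbrain at 4 weeks Mycn lay under 1 CPM. There 3 reads were worth 0.402 to 0.576 CPM, so the sizes of these falls are uncertain. Of 6 tested p53 response genes, 3, 2, 1 and 2 were lower and 1 was higher in cortex at 4 weeks. Cdkn1a, the p53 target that halts the cell cycle, had -1.77, -1.68, -1.13 and -1.47. Values are on the TMM scale, and their relation to the ribosomal protein genes was not tested.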
